A study of Rattus norvegicus with 21 samples.

Results

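Expression was compared between SFSN-EC and SFSN-Neu, 3 libraries each and 6 of the 21 in the series, over every gene of the deposited table. The libraries of both groups were made from rat bone marrow mesenchymal stem cells of genotype WT and carry the treatment label SFSN, an abbreviation of the self-feedback synaptic networks in the series title. The submitters give endothelial cells as the fate of SFSN-EC and neuron-like cells as that of SFSN-Neu, and the library names of the 2 groups carry the marker names CD31 and MAP2. Values of 15 further libraries are set beside them: SFSN-Ot (osteoblasts), SFSN-TC (tendon cells), SFSN-FB (fibroblasts) and SFSN-Adipo (adipocytes), which share cell type, genotype and the SFSN label, and Control, which shares cell type and genotype and has a slash in place of a treatment. What SFSN consisted of, how long it lasted, whether cells were sorted, the strain, sex and age of the animals and whether the 3 libraries of a group came from separate cultures are not stated in the labels. The p-values below therefore measure the spread between these libraries, which may be technical. The table runs through the alphabet as far as Map2k1, with 9998 genes, of which 6659 passed the filter on low counts. Pecam1, which encodes CD31, lies beyond that point and was not analysed here. The 6 libraries held 8113600 to 8810120 counts on these genes and levels are given as CPM, scaled to the counts on these genes only.

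Mesenchymal stem cells of the marrow are stromal precursors that can form bone, cartilage and fat, and that make the chemokine Cxcl12 and the growth factor Csf1 for the blood-forming cells around them. Endothelial cells line vessels and are known by the cadherin Cdh5, the VEGF receptors Kdr and Flt1 and the transcription factor Erg. Neurons are known by the microtubule protein Map2, the migration protein Dcx, RNA-binding Elav proteins and the enzymes and channels of synapses. Marrow stromal cultures commonly also hold macrophages, which carry the receptor Csf1r and depend on Csf1 from the stroma.

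The cells of both groups had transcripts of the mesenchymal surface genes. Cd44, the hyaluronan receptor, was at 1138, 1154 and 1155 CPM in SFSN-EC, against 1106, 1082 and 1081 CPM in SFSN-Neu, and Eng, a TGF-beta co-receptor of mesenchymal and endothelial cells, at 162, 157 and 158 CPM in SFSN-EC, against 147, 159 and 159 CPM in SFSN-Neu. Neither differed past the test (adjusted p = 0.189 and 0.797, edgeR's quasi-likelihood test with Benjamini-Hochberg adjustment over the 6659 genes, as in all that follows). Of 17 tested genes of the mesenchymal stem cell surface and niche list, 3 were called higher in SFSN-EC and 1 lower, against 3.42% and 4.82% of all genes, with a median log2 fold change of 0.06. The niche chemokine Cxcl12 and the BMP antagonist Grem1, described below, are among the higher ones. The lower one was Alcam, an adhesion molecule also used to mark these cells, at 89.5, 112 and 116 CPM in SFSN-EC, against 142, 122 and 145 CPM in SFSN-Neu, with a log2 fold change of -0.37 ± 0.084 (SE, adjusted p = 0.00816). Its call was lost with log2 TPM values and limma (adjusted p = 0.177 and 0.179 with a pseudocount of 1 and 0.1).

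A library in each group stood apart from its replicates. The counts of SFSN-EC 1 differed from those of SFSN-EC 2 and 3 by a chi-square of 42.58 and 41.43 per degree of freedom, against 2.16 between SFSN-EC 2 and 3. Those of SFSN-Neu 2 differed from SFSN-Neu 1 and 3 by 21.56 and 23.98, against 2.83 between SFSN-Neu 1 and 3. Both libraries were relatively poor in long transcripts: level fell by 0.137 and 0.138 on the log2 scale per doubling of gene length in SFSN-EC 1 and SFSN-Neu 2, while the other libraries of the pair lay between -0.01 and 0.055. Col1a2, a chain of type I collagen, was at 4498, 12798 and 11732 CPM in SFSN-EC, against 10920.2, 5492 and 12089 CPM in SFSN-Neu, lowest in those 2 libraries, and the part of gene length in this was not tested. Because each group held 1 such library, counts are given with all 6 libraries and also without SFSN-EC 1 and SFSN-Neu 2.

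In all, 549 of the 6659 genes differed at an adjusted p under 0.05 (8.24%). SFSN-EC was higher in 228 of them (3.42%) and lower in 321 (4.82%). Of these, 209 differed at least 1.5-fold (3.14%), 48 higher (0.721%) and 161 lower (2.42%), so that the larger differences lay mostly on the side of lower levels in SFSN-EC. At least 2-fold, 18 genes were higher and 95 lower. The median log2 fold change of all genes was 0.02, and the median size among the 549 was 0.446. In 529 of the 549 the 3 SFSN-EC libraries did not overlap with the 3 SFSN-Neu libraries, as was the case for 1255 of all 6659 genes (18.8%). Without SFSN-EC 1 and SFSN-Neu 2 the count was 543 of 6729 genes (8.07%), 224 higher (3.33%) and 319 lower (4.74%). Of these, 431 were among the 549, all in the same direction. A fit of the 6 libraries alone, which takes no estimate of the spread from the other 15, called 122 of 6371 genes, 29 higher and 93 lower. Voom with library quality weights, which came to 0.123 for SFSN-EC 1 and 0.232 for SFSN-Neu 2, called 1194. The count with 1 library left out lay between 397 (without SFSN-EC 3 or without SFSN-Neu 3) and 808 (without SFSN-EC 1). With log2 TPM values and limma, the calls of Alcam, Csf1, Lgmn, Ctsb, Cxcl16, Fosb, Cd36, Insig1, Lars, Iars, Aars, Cars, Figf, Grem1, Chrdl1, Erbb3 and Lum, all described below or above, were lost with either pseudocount (adjusted p of 0.0573 to 0.335).

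By gene list the differences were uneven. Macrophage and leukocyte genes were lower in SFSN-EC in 21 of 28 genes tested, and genes of cholesterol synthesis and uptake in 9 of 17, against 4.82% of all genes. Immediate early and MAP kinase phosphatase genes were higher in 20 of 32, and adipocyte genes in 11 of 22, against 3.42% of all genes. Endothelial genes, 14 tested, and neuronal genes, 9 tested, held no called gene in either direction, against 8.24% of all genes. At that share, lists this short can hold none, so the absence of calls says little about their members.

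**Figure D1:**
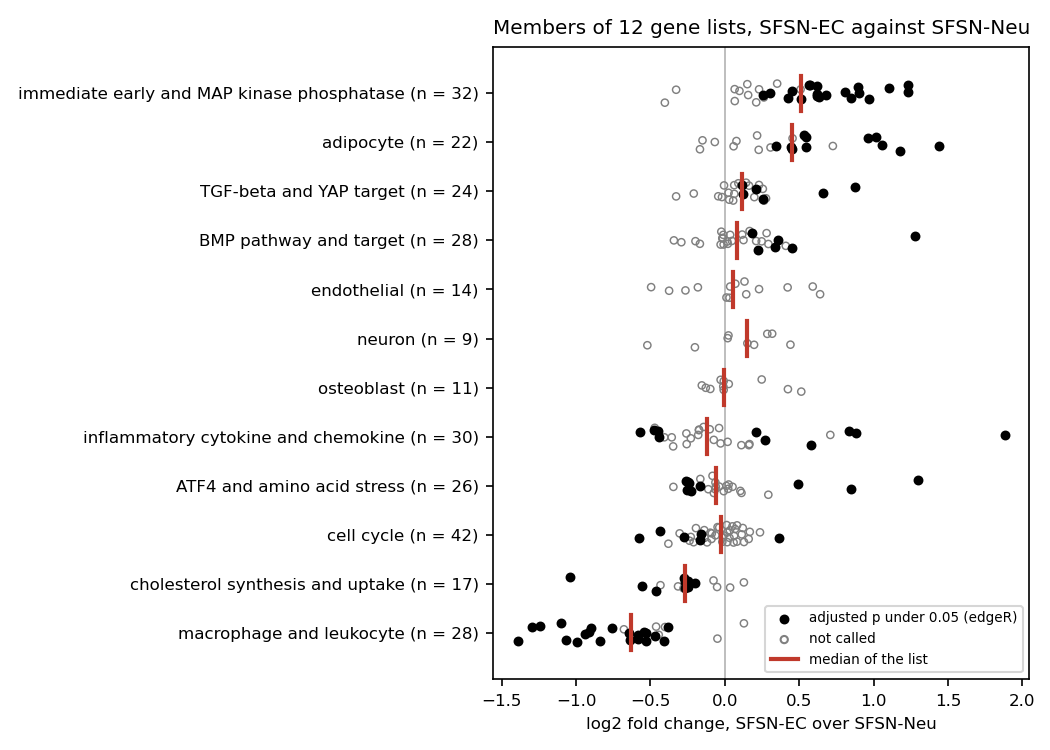
Log2 fold change of each tested member of 12 gene lists, SFSN-EC over SFSN-Neu, with filled points for genes at an adjusted p under 0.05 (edgeR), open points for the others and a red bar at the list's median. The medians run from 0.51 for the immediate early list to -0.63 for the macrophage and leukocyte list, with 0.05 for the endothelial and 0.15 for the neuronal list.

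The endothelial list, which names the fate of SFSN-EC, held no call by edgeR, against 8.24% of all genes. Of its 30 genes 19 were in the table and 14 were tested, with a median log2 fold change of 0.05, against 0.02 over all genes. The defining receptors and adhesion genes were near the bottom of the range or untested. Cdh5, the cadherin of endothelial junctions, had at most 2 counts in an SFSN-EC library and 2 to 3 in the SFSN-Neu libraries. Kdr, the main VEGF receptor, had 2 to 5 counts in SFSN-EC and 2 to 4 in SFSN-Neu, and Emcn, an endothelial sialomucin, had 0 in every SFSN-EC library and at most 1 in SFSN-Neu. Flt1, the decoy VEGF receptor, was at 4.74, 4.59 and 6.49 CPM in SFSN-EC, against 5.34, 5.88 and 3.84 CPM in SFSN-Neu, and Flt4, the receptor for the lymphatic VEGFs, at 7.56, 11 and 10.4 CPM in SFSN-EC, against 5.22, 4.24 and 9.09 CPM in SFSN-Neu. For both genes the groups overlapped, with log2 fold changes of 0.07 ± 0.18 and 0.64 ± 0.24 (SE, adjusted p = 0.919 and 0.118). Flt4 was called higher without SFSN-EC 1 (adjusted p = 0.0455), without SFSN-Neu 3 (0.0077) and by voom with quality weights (0.0157). At an unadjusted p under 0.05, 2 of the 14 genes differed, DESeq2 called 0 and voom 1. Over all genes, 1275 of 6659 differed at that unadjusted p, DESeq2 called 581 of 9998 and voom 1194 of 6659.

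The transcription factors of the list are not limited to endothelium. Erg was at 19.3, 14.2 and 14.9 CPM in SFSN-EC, against 20.3, 20.1 and 14.4 CPM in SFSN-Neu, and Ets1 at 276, 330.0 and 313 CPM in SFSN-EC, against 304, 277 and 319 CPM in SFSN-Neu, both with overlapping groups. Fli1, another ETS factor, was at 20.3, 25.2 and 24.6 CPM in SFSN-EC, against 30.2, 26.6 and 27.5 CPM in SFSN-Neu, without overlap but short of the test (log2 fold change -0.26 ± 0.095 SE, adjusted p = 0.108). Gata2, a factor of blood stem cells and endothelium, was at 17.9, 14.5 and 16.8 CPM in SFSN-EC, against 13.6, 17.1 and 14.3 CPM in SFSN-Neu (adjusted p = 0.720). The remaining 8 tested members, Esam, Egfl7, Icam2, Cd34, Clec14a, Lyve1, Cd93 and Eng, had log2 fold changes between -0.50 (Esam) and 0.59 (Cd34), none past the test. The summed level of the 19 genes in the table, as a share of each library's counts and without TMM as for all such sums, was 569 to 601 CPM in SFSN-EC, 571 to 602 CPM in SFSN-Neu and 527 to 566 CPM in Control. Most of that sum came from Ets1 and Eng.

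The neuronal list, with fewer tested members, held no call by edgeR either, against 8.24% of all genes. Of 31 genes 20 were in the table and 9 were tested, with a median of 0.15. Map2, for which the SFSN-Neu libraries are named, was at 9.14, 13.1 and 12.9 CPM in SFSN-EC, against 14.7, 11.8 and 13.9 CPM in SFSN-Neu, with a log2 fold change of -0.20 ± 0.15 (SE, adjusted p = 0.573). The groups overlapped, and both lay below Control, at 27.6 to 30.6 CPM. Dcx, a microtubule protein of migrating young neurons, was at 1.92, 2.91 and 1.9 CPM in SFSN-EC, against 3.36, 1.77 and 4.54 CPM in SFSN-Neu (adjusted p = 0.502). Map1b, a microtubule protein of growing axons, was at 174, 219 and 227 CPM in SFSN-EC, against 174, 152 and 182 CPM in SFSN-Neu, with an overlap between SFSN-EC 1 and the SFSN-Neu libraries (log2 fold change 0.29 ± 0.11 SE, adjusted p = 0.122). It was called higher without SFSN-EC 1 (adjusted p = 0.0145), by voom with quality weights (0.00179) and with the gene-length trend removed (0.007). Its level in Control was 641 to 705 CPM, above both groups. Dlg4, a scaffold of excitatory synapses, was at 90.5, 129.8 and 132 CPM in SFSN-EC, against 114, 83.6 and 119.6 CPM in SFSN-Neu, again with overlap. The other tested members, Camk2b, Cplx2, Ina, Celf4 and Fez1, had log2 fold changes between 0.02 (Celf4) and 0.44 (Camk2b). At an unadjusted p under 0.05, 1 of the 9 genes differed, DESeq2 called 0 and voom 1. The counts over all genes were 1275 of 6659, 581 of 9998 and 1194 of 6659. The 11 untested neuronal genes had 0 to 4 counts in any of the 6 libraries. Among them, the GABA-synthesizing enzymes Gad1 and Gad2 had none in SFSN-EC and at most 1 in SFSN-Neu.

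Of 7 tested glial genes 1 was higher, Egr2, which is described below as an immediate early gene, and 2 were lower. Cldn11, a tight junction protein of myelin and of other tissues, was lower at 2.26, 1.57 and 1.9 CPM in SFSN-EC, against 5.57, 5.3 and 4.89 CPM in SFSN-Neu (log2 fold change -1.45 ± 0.23 SE, adjusted p = 0.000338). Erbb3, the neuregulin receptor of Schwann cells, was lower at 2.14, 1.9 and 1.57 CPM in SFSN-EC, against 4.87, 3.3 and 3.5 CPM in SFSN-Neu (log2 fold change -1.05 ± 0.30 SE, adjusted p = 0.0325). The call of Erbb3 was lost without SFSN-EC 2, SFSN-EC 3, SFSN-Neu 1 or SFSN-Neu 3 (adjusted p of 0.0885, 0.136, 0.155 and 0.057). Of 37 synapse and ion channel genes 3 were lower, and of 22 axon growth and guidance genes 1, against the 4.82% of all genes.

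Macrophage and leukocyte genes held the most calls of lower levels in SFSN-EC among the 42 lists. The 21 called genes of 28 tested compare with 4.82% of all genes, and the list's median log2 fold change was -0.63, within -0.76 and -0.56 over all alternatives. In 24 of the 28, the 21 called genes among them, the libraries of the 2 groups did not overlap, against 18.8% of all genes. Without SFSN-EC 1 and SFSN-Neu 2 the count was 20 (4.74% of all genes were lower there) with a median of -0.70. The 6 libraries alone gave 10, against 93 of 6371 genes lower in that fit. The summed level of the list was 1763 to 2119 CPM in SFSN-EC, 2722 to 2997 CPM in SFSN-Neu and 1423 to 1568 CPM in Control, so SFSN-Neu lay highest of the 3. These are bulk libraries, in which fewer cells of a type and less RNA per cell cannot be told apart.

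Of the receptors on the list, 5 are given here. Csf1r, the receptor for Csf1 and Il34 on which macrophages depend, was at 109, 113 and 111 CPM in SFSN-EC, against 261, 260.4 and 264 CPM in SFSN-Neu, with a log2 fold change of -1.24 ± 0.048 (SE, adjusted p = 2.11e-11). Within each group its libraries lay within a few CPM of each other. Cx3cr1, the fractalkine receptor of monocytes, was at 6.55, 9.96 and 10.4 CPM in SFSN-EC, against 21.5, 19.4 and 25.3 CPM in SFSN-Neu, with a log2 fold change of -1.3 ± 0.16 (SE, adjusted p = 2.51e-05). Itgam, the alpha chain CD11b of the complement receptor of phagocytes, was at 21.7, 26.5 and 25.5 CPM in SFSN-EC, against 54.8, 39.1 and 52.9 CPM in SFSN-Neu, with a log2 fold change of -0.99 ± 0.14 (SE, adjusted p = 0.000157). SFSN-Neu 2 was the lowest SFSN-Neu library for Cx3cr1 and Itgam, and still above all SFSN-EC libraries. Its beta chain partner Itgb2 was at 40.2, 47.6 and 39.5 CPM in SFSN-EC, against 59.3, 63.2 and 68 CPM in SFSN-Neu, with a log2 fold change of -0.58 ± 0.083 (SE, adjusted p = 0.000127). Cd14, the co-receptor for bacterial lipopolysaccharide, was at 76.7, 61.1 and 63.5 CPM in SFSN-EC, against 90.3, 109 and 94.5 CPM in SFSN-Neu, with a log2 fold change of -0.54 ± 0.10 (SE, adjusted p = 0.00120).

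Csf1 and Cx3cl1, ligands of Csf1r and Cx3cr1, were also tested. Csf1, made by the stroma, was slightly higher in SFSN-EC, at 1111, 1136 and 1130.2 CPM in SFSN-EC, against 962, 972 and 986 CPM in SFSN-Neu, with a log2 fold change of 0.21 ± 0.031 (SE, adjusted p = 0.000168). Its call did not hold with log2 TPM values (adjusted p = 0.0695 and 0.0726 with a pseudocount of 1 and 0.1). Cx3cl1, the membrane-bound ligand of Cx3cr1, was at 9.82, 11 and 10.6 CPM in SFSN-EC, against 11.9, 13.3 and 12.3 CPM in SFSN-Neu, which missed the test (log2 fold change -0.26 ± 0.15 SE, adjusted p = 0.397).

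Cybb, Lcp1, Ctss and Lyz2 were also among the 21 called genes. Cybb, the catalytic subunit of the phagocyte NADPH oxidase, was at 16.7, 37.3 and 37.9 CPM in SFSN-EC, against 92.5, 52.7 and 96.1 CPM in SFSN-Neu, with a log2 fold change of -1.39 ± 0.28 (SE, adjusted p = 0.00395). SFSN-EC 1 was the lowest SFSN-EC library and SFSN-Neu 2 the lowest SFSN-Neu library for this gene, and the groups did not overlap. Lcp1, the actin-bundling L-plastin of leukocytes, was at 146, 158 and 158 CPM in SFSN-EC, against 341, 308 and 341 CPM in SFSN-Neu, with a log2 fold change of -1.10 ± 0.055 (SE, adjusted p = 3.32e-10). Ctss, a cathepsin of antigen-presenting cells, was at 32.5, 24.3 and 24.1 CPM in SFSN-EC, against 57.7, 63.6 and 48.3 CPM in SFSN-Neu, with a log2 fold change of -1.07 ± 0.13 (SE, adjusted p = 2.29e-05). Lyz2, the macrophage lysozyme, had the smallest difference of the called members, at 882, 717 and 716 CPM in SFSN-EC, against 969, 1115 and 928 CPM in SFSN-Neu, with a log2 fold change of -0.38 ± 0.085 (SE, adjusted p = 0.00774). It missed the threshold without SFSN-EC 3 (adjusted p = 0.0504) or without SFSN-Neu 2 (0.0513).

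The complement subunits C1qa and C1qb, made mainly by macrophages, were lower at low levels. C1qb was at 4.51, 3.25 and 3.92 CPM in SFSN-EC, against 6.5, 8.12 and 7.22 CPM in SFSN-Neu, with a log2 fold change of -0.90 ± 0.22 (SE, adjusted p = 0.0136), and C1qa at 7.22, 4.81 and 5.04 CPM in SFSN-EC, against 9.16, 11.1 and 8.74 CPM in SFSN-Neu, with a log2 fold change of -0.76 ± 0.22 (SE, adjusted p = 0.0370). C1qb lost its call without SFSN-EC 2 or SFSN-Neu 2 (adjusted p = 0.0722 and 0.0575), and C1qa without any single library other than SFSN-EC 1 (adjusted p of 0.0575 to 0.152). Cd68, a lysosomal glycoprotein of macrophages, was at 32.3, 22.3 and 22.2 CPM in SFSN-EC, against 37, 43.9 and 34.1 CPM in SFSN-Neu, with a log2 fold change of -0.58 ± 0.14 (SE, adjusted p = 0.0125), and lost its call without SFSN-EC 2, SFSN-EC 3 or SFSN-Neu 2 (0.0722, 0.0763 and 0.0723). The scavenger receptor Cd163, the T cell gene Cd3e, the B cell gene Cd79b and Cd52 had no count in any of the 6 libraries.

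**Figure D2:**
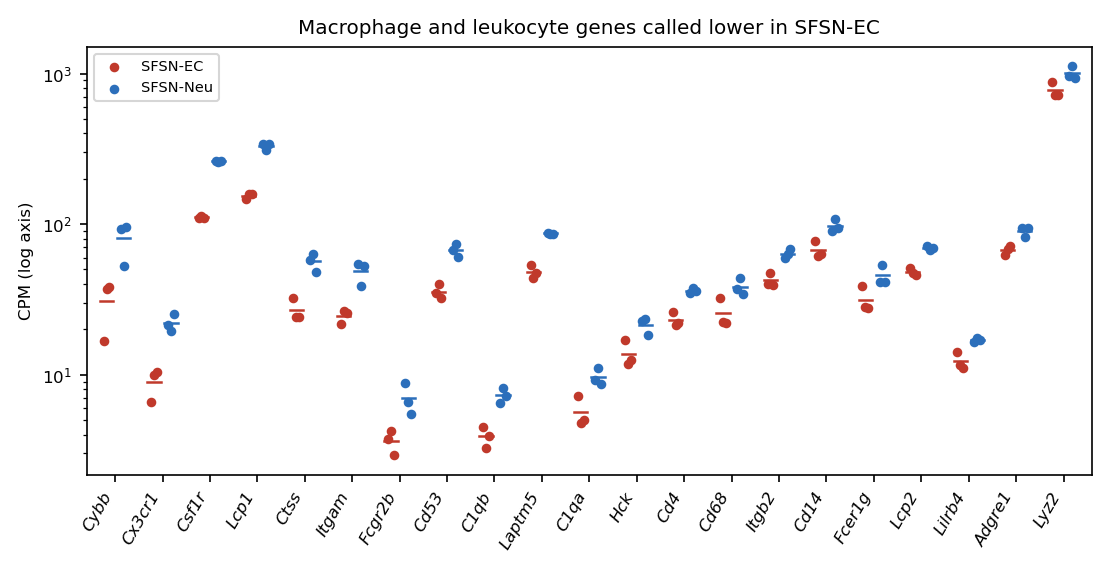
CPM of the 21 macrophage and leukocyte genes called lower in SFSN-EC, on a log axis, with a point per library and a bar at each group's mean. For each gene the 3 SFSN-EC points lie below the 3 SFSN-Neu points, as for Csf1r at about 111 CPM in SFSN-EC and 262 CPM in SFSN-Neu.

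By the rule for named genes, which takes called genes without overlap and with a mean of 10 CPM or more in the higher group, the 12 lowest by fold were Adssl1, Alox5, Gpr84, Irg1, Cd37, Cybb, Lonrf3, Fmnl1, Ly86, Coro1a, Cx3cr1 and Dock2. They were chosen for their fold, and Cybb and Cx3cr1 also stand on the macrophage and leukocyte list. Adssl1, an adenylosuccinate synthase best known from muscle, was lowest, at 5.64, 4.48 and 4.59 CPM in SFSN-EC, against 14.3, 18.6 and 16.5 CPM in SFSN-Neu, with a log2 fold change of -1.75 ± 0.13 (SE, adjusted p = 3.91e-08). Alox5, the enzyme that starts leukotriene synthesis, was at 6.43, 7.27 and 4.48 CPM in SFSN-EC, against 17.8, 16.7 and 20.6 CPM in SFSN-Neu, with a log2 fold change of -1.60 ± 0.19 (SE, adjusted p = 2.15e-05). Irg1, which makes itaconate in activated macrophages, was at 9.03, 7.83 and 7.84 CPM in SFSN-EC, against 23.3, 21.9 and 22.7 CPM in SFSN-Neu, with a log2 fold change of -1.46 ± 0.11 (SE, adjusted p = 1.04e-07). Gpr84, a myeloid receptor for medium-chain fatty acids, was at 4.63, 3.13 and 3.58 CPM in SFSN-EC, against 11.4, 11.4 and 10.7 CPM in SFSN-Neu, with a log2 fold change of -1.56 ± 0.15 (SE, adjusted p = 1.44e-06). None of these 4 genes had an SFSN-EC library above any SFSN-Neu library.

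Fmnl1, Coro1a and Dock2 act on the actin cytoskeleton of leukocytes. Fmnl1, a formin, was at 42, 36.6 and 38.5 CPM in SFSN-EC, against 94.4, 102 and 100.1 CPM in SFSN-Neu (log2 fold change -1.34 ± 0.079 SE, adjusted p = 3.29e-09). Coro1a, a coronin, was at 74.3, 58.4 and 56.1 CPM in SFSN-EC, against 149, 171 and 149 CPM in SFSN-Neu (log2 fold change -1.31 ± 0.11 SE, adjusted p = 3.77e-07). Dock2, which activates the GTPase Rac, was at 16.1, 19.5 and 16 CPM in SFSN-EC, against 41.9, 40.3 and 44.3 CPM in SFSN-Neu (log2 fold change -1.29 ± 0.093 SE, adjusted p = 3.91e-08). The tetraspanin Cd37, the antigen Ly86 and Lonrf3 had log2 fold changes of -1.43 ± 0.17, -1.32 ± 0.30 and -1.36 ± 0.18 (SE).

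The 12 other SFSN libraries give a common point for both groups. Of the 28 list members, SFSN-Neu was above the mean of the 4 remaining SFSN groups in 21 and below it in 0. Of all 6659 genes, 456 (6.85%) were higher and 368 (5.53%) lower. SFSN-EC was below that mean in 5 and above it in 0, against 174 (2.61%) and 223 (3.35%) of all genes. Csf1r was at 72.2 to 221 CPM in the 12 libraries and at 87.9 to 94 CPM in Control. Both comparisons share those 12 libraries.

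Of 42 lysosome genes 5 were lower in SFSN-EC (11.9%) and 0 higher, against 4.82% and 3.42% of all genes, with a median of 0.01. The cathepsin Ctsz was at 115, 91.3 and 88.5 CPM in SFSN-EC, against 140.1, 172 and 138 CPM in SFSN-Neu, with a log2 fold change of -0.61 ± 0.10 (SE, adjusted p = 0.000725), and the cathepsin Ctsc had a log2 fold change of -0.34 ± 0.052 (SE, adjusted p = 0.000278). Lgmn, the asparaginyl protease legumain, had one of -0.29 ± 0.043 (SE, adjusted p = 0.000253). Of 23 matrix protease genes 3 were lower and 0 higher, against the same background. Adam8, a metalloprotease of myeloid cells, was at 20.7, 19.7 and 19.7 CPM in SFSN-EC, against 46.3, 43.2 and 43.8 CPM in SFSN-Neu, with a log2 fold change of -1.15 ± 0.075 (SE, adjusted p = 9.85e-09), and the other pair, Ctss and Ctsb, are cathepsins (-0.16 for Ctsb). Ctsb lost its call without any single library other than SFSN-EC 1 (adjusted p of 0.0546 to 0.141). The leukocyte list moved alongside these genes (21 of 28 lower, sums as above), and its part in their difference was not tested.

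Immediate early genes, which stimuli such as growth factors and stress switch on within minutes through MAP kinases, were higher in SFSN-EC. The list also holds the Dusp phosphatases that those kinases induce and that switch them off. Of its 32 genes, all tested, 20 were higher and 0 lower, against 3.42% and 4.82% of all genes. The median log2 fold change was 0.51, within 0.44 and 0.56 over all alternatives. There was no overlap between the groups in 23 genes, against 18.8% of all genes. Without SFSN-EC 1 and SFSN-Neu 2 the counts were 19 higher and 1 lower (3.33% and 4.74% of all genes). The 6 libraries alone gave 9 and 0, against 29 and 93 of 6371 genes.

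The Egr zinc finger factors formed a graded set. Egr3 was at 20.5, 35.9 and 36.3 CPM in SFSN-EC, against 13, 12.4 and 14.1 CPM in SFSN-Neu, with a log2 fold change of 1.23 ± 0.18 (SE, adjusted p = 0.000182). Egr2 was at 51.8, 64.1 and 61.7 CPM in SFSN-EC, against 29.6, 22.8 and 30.2 CPM in SFSN-Neu, with a log2 fold change of 1.10 ± 0.10 (SE, adjusted p = 7.18e-07). Egr1 was at 191, 259.8 and 247 CPM in SFSN-EC, against 169, 139.7 and 160.3 CPM in SFSN-Neu, with a log2 fold change of 0.57 ± 0.092 (SE, adjusted p = 0.000439). SFSN-EC 1 was the lowest SFSN-EC library for each of the 3 and still above every SFSN-Neu library.

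Fos, Junb, Jun and Fosb, subunits of AP-1, were among the 20 called genes. Fos was at 400.2, 429 and 433 CPM in SFSN-EC, against 287, 255 and 278 CPM in SFSN-Neu, with a log2 fold change of 0.62 ± 0.052 (SE, adjusted p = 2.89e-07). Junb was at 745, 563 and 576 CPM in SFSN-EC, against 403, 456 and 369.8 CPM in SFSN-Neu, with a log2 fold change of 0.62 ± 0.090 (SE, adjusted p = 0.000168), and Jun at 469, 393 and 391 CPM in SFSN-EC, against 289, 342 and 284 CPM in SFSN-Neu, with a log2 fold change of 0.45 ± 0.091 (SE, adjusted p = 0.00325). For all 3 the groups did not overlap, and SFSN-EC 1 was the highest library for Junb and Jun. Fosb varied more, at 57.8, 141 and 139 CPM in SFSN-EC, against 49.7, 34.4 and 60.2 CPM in SFSN-Neu, with SFSN-EC 1 inside the range of SFSN-Neu. Its log2 fold change of 1.23 ± 0.37 (SE, adjusted p = 0.0464) was not called without any single library other than SFSN-EC 1 (adjusted p of 0.0619 to 0.172). Atf3, a stress-induced partner of these factors, was at 44.6, 38.9 and 42.6 CPM in SFSN-EC, against 23.7, 23.9 and 22.4 CPM in SFSN-Neu, with a log2 fold change of 0.85 ± 0.077 (SE, adjusted p = 7.17e-07).

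Dusp1, Dusp6, Dusp5, Btg2 and Csrnp1 were also among the 20. Dusp1, which inactivates p38, JNK and ERK, was at 691, 711 and 676 CPM in SFSN-EC, against 382, 368 and 368 CPM in SFSN-Neu, with a log2 fold change of 0.90 ± 0.040 (SE, adjusted p = 1.09e-10). Dusp6, which inactivates ERK, was at 122, 108 and 119 CPM in SFSN-EC, against 71, 76.7 and 70.02 CPM in SFSN-Neu, with a log2 fold change of 0.68 ± 0.062 (SE, adjusted p = 8.06e-07). Dusp5, a nuclear ERK phosphatase, was at 18.8, 27.4 and 31.2 CPM in SFSN-EC, against 17.5, 11.9 and 14.9 CPM in SFSN-Neu, with a log2 fold change of 0.81 ± 0.17 (SE, adjusted p = 0.00458). Btg2, an antiproliferative p53 target, was at 394, 381 and 388 CPM in SFSN-EC, against 202, 196 and 195 CPM in SFSN-Neu, with a log2 fold change of 0.97 ± 0.045 (SE, adjusted p = 1.16e-10). Csrnp1, a nuclear protein, was at 58.7, 65.8 and 64 CPM in SFSN-EC, against 35.6, 30.5 and 34.8 CPM in SFSN-Neu, with a log2 fold change of 0.90 ± 0.10 (SE, adjusted p = 6.90e-06). None of these had overlapping groups, and for Dusp1 and Btg2 every SFSN-EC library had more than 1.7 times the level of every SFSN-Neu library.

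**Figure D3:**
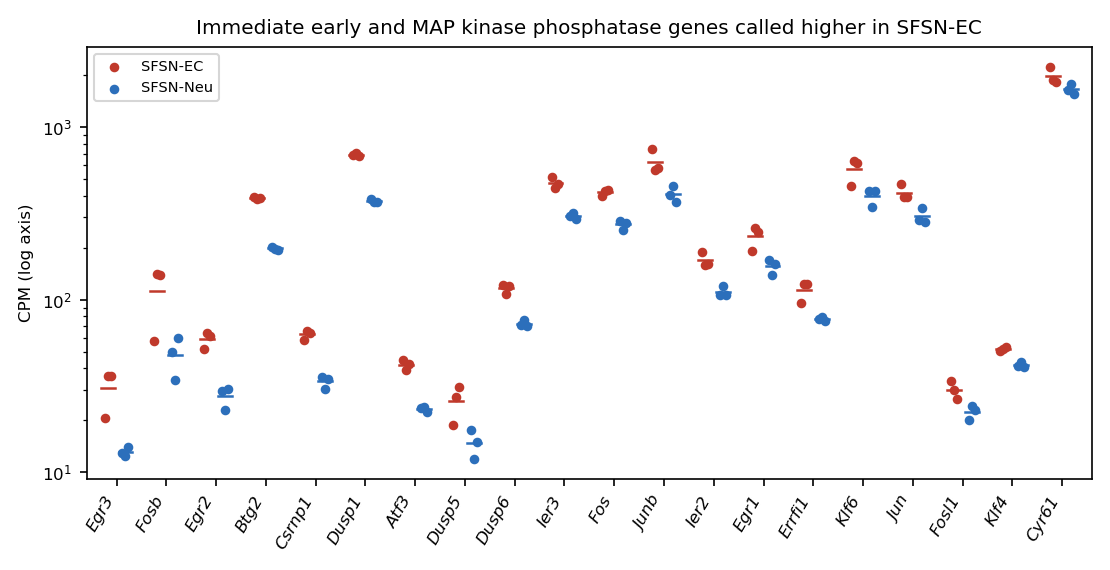
CPM of the 20 immediate early and MAP kinase phosphatase genes called higher in SFSN-EC, on a log axis, with a point per library and a bar at each group's mean. The SFSN-EC points lie above the SFSN-Neu points for each gene except Fosb, where 1 SFSN-EC library (57.8 CPM) lies below the highest SFSN-Neu library (60.2 CPM).

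Against the same 12 libraries, SFSN-Neu was below the mean of the 4 groups in 20 of the 32 genes and above it in 2. Of all 6659 genes, 368 (5.53%) were lower and 456 (6.85%) higher. SFSN-EC was above their mean in 7 and below it in 3, against 223 (3.35%) and 174 (2.61%) of all genes. Egr3 was at 17.6 to 67.6 CPM in the 12 other SFSN libraries and at 14 to 15.2 CPM in Control, and Btg2 at 198 to 559 CPM and 90.1 to 94.7 CPM.

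The 250 bases before the RefSeq transcription start (build GRCr8) were searched on both strands for 10 motifs in the genes of the 4 lists that moved. Promoters of 22 of the 32 immediate early genes were in that table. The CArG box, bound by serum response factor, was found in 4 of the 22 (18.2%), Egr1, Egr2, Dusp5 and Klf6, and in 1.62% of all 27457 promoters. The cyclic AMP response element TGACGTCA was found in 5 (22.7%), Btg2, Dusp1, Jund, Ier2 and Maff, and in 1.78% of all. Among these 22 genes 14 were called, and of those 4 held the CArG box and 3 the cyclic AMP element. The letters GAGGAA, the core of many ETS sites and of those of the myeloid factor PU.1, were found in 15 of 17 leukocyte promoters (88.2%), against 24.8% of all. The sequences below show where these letters lie in members described above, 5′ to 3′, with capitals for the motif or its reverse complement. They were picked after the matches were seen, a match is a description of letters and not evidence that a factor binds there, and the capitals mark 1 motif only.
Egr1 (chr18:26736828-26737077, plus strand, CArG box): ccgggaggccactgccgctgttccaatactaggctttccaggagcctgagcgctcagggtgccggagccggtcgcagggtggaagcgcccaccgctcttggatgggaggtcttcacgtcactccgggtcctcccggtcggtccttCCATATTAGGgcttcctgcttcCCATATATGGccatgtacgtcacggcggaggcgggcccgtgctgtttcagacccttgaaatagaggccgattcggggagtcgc
Egr2 (chr20:21054442-21054691, minus strand, CArG box): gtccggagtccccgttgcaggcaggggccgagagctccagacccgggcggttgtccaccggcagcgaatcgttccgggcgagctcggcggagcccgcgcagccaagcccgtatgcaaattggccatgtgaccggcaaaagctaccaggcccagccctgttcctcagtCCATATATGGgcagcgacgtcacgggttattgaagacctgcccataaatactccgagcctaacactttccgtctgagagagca
Dusp1 (chr10:17184603-17184852, plus strand, TGACGTCA): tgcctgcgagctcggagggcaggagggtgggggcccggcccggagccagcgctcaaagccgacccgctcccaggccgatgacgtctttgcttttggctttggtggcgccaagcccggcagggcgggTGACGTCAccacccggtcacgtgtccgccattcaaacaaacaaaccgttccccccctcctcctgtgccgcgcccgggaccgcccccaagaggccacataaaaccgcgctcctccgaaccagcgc
Btg2 (chr13:48087691-48087940, minus strand, TGACGTCA): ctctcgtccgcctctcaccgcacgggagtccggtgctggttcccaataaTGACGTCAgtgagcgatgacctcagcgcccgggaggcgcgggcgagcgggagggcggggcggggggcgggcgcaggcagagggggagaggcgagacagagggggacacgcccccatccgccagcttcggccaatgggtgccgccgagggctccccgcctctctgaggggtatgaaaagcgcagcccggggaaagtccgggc
Csf1r (chr18:56834129-56834378, plus strand, GAGGAA): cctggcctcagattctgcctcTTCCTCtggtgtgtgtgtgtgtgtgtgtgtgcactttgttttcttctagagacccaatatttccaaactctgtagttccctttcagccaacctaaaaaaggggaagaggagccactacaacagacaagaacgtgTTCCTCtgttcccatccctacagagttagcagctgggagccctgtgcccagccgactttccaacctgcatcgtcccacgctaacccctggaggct
Itgam (chr1:192089342-192089591, plus strand, GAGGAA): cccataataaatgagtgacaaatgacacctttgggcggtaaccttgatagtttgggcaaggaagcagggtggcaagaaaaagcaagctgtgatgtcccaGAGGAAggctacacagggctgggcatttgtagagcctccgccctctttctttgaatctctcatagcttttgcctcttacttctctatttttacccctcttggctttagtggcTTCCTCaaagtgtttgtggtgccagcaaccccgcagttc
In Egr1 the 2 CArG boxes begin 105 and 83 bases before the start, and in Egr2 the single one begins 83 bases before it. The letters GAGGAA or their reverse complement begin 229 and 95 bases before the start of Csf1r and 151 and 39 before that of Itgam. The cyclic AMP element begins 124 bases before the start of Dusp1 and 201 before that of Btg2. The other motifs searched were GAGGAAGT (a PU.1 type, which contains the ETS core), the AP-1 site by name, the NF-kappaB site by name, TCACNCCAC (a sterol response type), the box CCAAT, the short form TGACG of the cyclic AMP element (contained in it) and the direct repeat 1 of nuclear receptors by name. TCACNCCAC was in 0 of 13 cholesterol promoters and in 1.09% of all, GAGGAAGT in 4 of 17 leukocyte promoters (23.5%) and in 2.2% of all, and TGACG in 14 of 22 immediate early promoters (63.6%) and in 5480 of all. CCAAT was in 9 of 13 cholesterol promoters (69.2%) and in 36.1% of all. The direct repeat and the NF-kappaB site were in 0 promoters of the 4 lists, and in 0.0583% and 0.0801% of all, and the AP-1 site was in 0 of 22 immediate early promoters and in 4.42% of all.

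Cytokine and chemokine genes were found in both directions. Of 30 tested, 6 were higher and 4 lower in SFSN-EC, against 3.42% and 4.82% of all genes, with a median of -0.12. None of the 10 had overlapping groups, as in 529 of all 549 called genes. With the 6 libraries alone, 2 were higher and 0 lower, against 29 and 93 of 6371 genes. The neutrophil chemokine Cxcl1 had the highest log2 fold change among the genes named by rule, at 215, 189 and 178 CPM in SFSN-EC, against 53.8, 58.9 and 45.1 CPM in SFSN-Neu, with a log2 fold change of 1.88 ± 0.10 (SE, adjusted p = 1.48e-09). Every SFSN-EC library had more than 3 times the level of every SFSN-Neu library, and Control was at 5.92 to 7.31 CPM. Its close relative Cxcl2 was at 10.7, 9.85 and 10.6 CPM in SFSN-EC, against 7.42, 6.71 and 6.76 CPM in SFSN-Neu, with a log2 fold change of 0.58 ± 0.13 (SE, adjusted p = 0.00806), and lost its call without SFSN-EC 1 and SFSN-Neu 2 (adjusted p = 0.061). Il6, the acute-phase cytokine, was at 29.5, 27.4 and 22.7 CPM in SFSN-EC, against 13.7, 14.8 and 14.6 CPM in SFSN-Neu, with a log2 fold change of 0.88 ± 0.11 (SE, adjusted p = 4.45e-05).

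Lif, which signals through the same receptor chain as Il6, was at 46.8, 83.2 and 79.9 CPM in SFSN-EC, against 44.2, 32.2 and 41.4 CPM in SFSN-Neu, with a log2 fold change of 0.83 ± 0.20 (SE, adjusted p = 0.0124). SFSN-EC 1 was close to the highest SFSN-Neu library, and the call was lost without SFSN-EC 2, SFSN-EC 3 or SFSN-Neu 2 (adjusted p = 0.0722, 0.0621 and 0.0648). The niche chemokine Cxcl12 was higher by a small amount without overlap, at 845, 891 and 841 CPM in SFSN-EC, against 705, 711 and 725 CPM in SFSN-Neu, with a log2 fold change of 0.27 ± 0.035 (SE, adjusted p = 5.08e-05). Csf1, described above, was the other gene of the 6. Lower in SFSN-EC were 3 chemokines and Birc3, an inhibitor of apoptosis on the same list. Ccl3, a macrophage chemokine, was at 13.1, 10.3 and 14 CPM in SFSN-EC, against 15.2, 19.9 and 16.9 CPM in SFSN-Neu (log2 fold change -0.48 ± 0.13 SE, adjusted p = 0.0287), and Ccl20, which attracts lymphocytes and dendritic cells, at 9.37, 7.38 and 7.61 CPM in SFSN-EC, against 11.8, 13.1 and 11.3 CPM in SFSN-Neu (log2 fold change -0.57 ± 0.17 SE, adjusted p = 0.0473). Cxcl16, a chemokine and scavenger receptor, and Birc3 had log2 fold changes of -0.45 ± 0.085 and -0.44 ± 0.11 (SE, adjusted p = 0.00209 and 0.0206). Ccl3 lost its call without SFSN-EC 2, SFSN-Neu 2 or SFSN-Neu 3 (adjusted p of 0.152, 0.153 and 0.0654), and Ccl20 without any single library other than SFSN-EC 1 (0.0763 to 0.164). Birc3 lost its call without SFSN-EC 2, SFSN-Neu 1 or SFSN-Neu 3 (0.0935, 0.0596 and 0.0763).

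Adipocyte genes were higher in SFSN-EC, although neither group is named for fat. Of 22 tested, 11 were higher and 0 lower, against 3.42% and 4.82% of all genes, with a median log2 fold change of 0.45 (0.35 to 0.50 over all alternatives). None of the 11 had overlapping groups, which was also so for 529 of all 549 called genes. Without SFSN-EC 1 and SFSN-Neu 2 the count was 9 (3.33% of all genes were higher there) with a median of 0.36. The 6 libraries alone gave 3, against 29 of 6371 genes higher in that fit. The summed level was 2023 to 2069 CPM in SFSN-EC, 1595 to 1707 CPM in SFSN-Neu and 1159 to 1180 CPM in Control.

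Fabp4, the fatty acid-binding protein of adipocytes, was at 187, 117 and 129 CPM in SFSN-EC, against 50.2, 63.3 and 45.8 CPM in SFSN-Neu, with a log2 fold change of 1.44 ± 0.19 (SE, adjusted p = 8.08e-05), with SFSN-EC 1 the highest library. Aqp7, the glycerol channel of fat cells, was at 14.8, 12.8 and 11.3 CPM in SFSN-EC, against 5.68, 6.71 and 4.78 CPM in SFSN-Neu, with a log2 fold change of 1.18 ± 0.18 (SE, adjusted p = 0.000338). Gpd1, which makes glycerol 3-phosphate for triglyceride, was at 69.6, 57.1 and 58.2 CPM in SFSN-EC, against 30.5, 33.3 and 27.4 CPM in SFSN-Neu, with a log2 fold change of 1.02 ± 0.13 (SE, adjusted p = 3.49e-05). These 3 genes were called under each of the 19 alternatives. Adipoq, the adipocyte hormone adiponectin, was at 36.7, 26.2 and 28.2 CPM in SFSN-EC, against 22.4, 23 and 17 CPM in SFSN-Neu, with a log2 fold change of 0.55 ± 0.12 (SE, adjusted p = 0.00732). Lpl, lipoprotein lipase, was at 652, 774 and 749.8 CPM in SFSN-EC, against 547, 503 and 543 CPM in SFSN-Neu, with a log2 fold change of 0.45 ± 0.055 (SE, adjusted p = 2.77e-05).

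G0s2, an inhibitor of triglyceride lipase, had a log2 fold change of 0.96 ± 0.25 (SE, adjusted p = 0.0229) and lost its call without SFSN-EC 1, SFSN-EC 3 or SFSN-Neu 3 (adjusted p = 0.0571, 0.0614 and 0.105). Adig, adipogenin, had one of 1.06 ± 0.30 (SE, adjusted p = 0.0319), lost without SFSN-EC 1, SFSN-EC 2, SFSN-Neu 1 or SFSN-Neu 3 (0.0962, 0.0707, 0.135 and 0.148). Cfd, the adipocyte protease adipsin, had one of 0.54 ± 0.16 (SE, adjusted p = 0.0464), lost without SFSN-EC 1 (0.173), SFSN-Neu 1 (0.0802), SFSN-Neu 2 (0.0513) or SFSN-Neu 3 (0.193). The fatty acid transporter Cd36, at 74.2, 76.8 and 66.2 CPM in SFSN-EC, against 62.4, 50.7 and 58.1 CPM in SFSN-Neu, was just past the threshold (adjusted p = 0.0493) and missed it in 13 of the 19 alternatives, among them each of the other scalings (0.0505 to 0.0644) and the omission of SFSN-EC 1, SFSN-EC 2, SFSN-Neu 2 or SFSN-Neu 3 (0.0778, 0.175, 0.203 and 0.102).

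Angptl4, a secreted inhibitor of lipoprotein lipase that PPAR factors induce, was at 85.7, 72.6 and 78 CPM in SFSN-EC, against 26.6, 25.4 and 23.5 CPM in SFSN-Neu, with a log2 fold change of 1.65 ± 0.093 (SE, adjusted p = 1.75e-09). Cyp4b1, a cytochrome P450, was at 78.7, 63.7 and 69.5 CPM in SFSN-EC, against 29.6, 34.5 and 22.5 CPM in SFSN-Neu, with a log2 fold change of 1.29 ± 0.12 (SE, adjusted p = 5.96e-07). For both genes the lowest SFSN-EC library was above the highest SFSN-Neu library by at least 1.8 times. Set against the mean of the 4 remaining SFSN groups, SFSN-EC was higher in 8 of 22 adipocyte genes and lower in 0 (3.35% and 2.61% of all genes). SFSN-Neu was higher than that mean in 0 and lower in 3 (6.85% and 5.53%). That mean covers groups that differ, with SFSN-TC and SFSN-Adipo above SFSN-Ot and SFSN-FB over the list. The list's median log2 level relative to all 21 libraries was 0.60, 0.24 and 0.19 in SFSN-EC. It was 0.62, 0.515 and 0.67 in SFSN-TC and 0.39, 0.36 and 0.32 in SFSN-Adipo. A high level of the list was thus not particular to SFSN-EC. Angptl4 was at 15.8 to 71.6 CPM in the 12 other SFSN libraries and at 6.3 to 8.69 CPM in Control.

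Genes of cholesterol synthesis and uptake, which the SREBP factors switch on when sterols are scarce, were lower in SFSN-EC. Of 17 tested, 9 were lower and 0 higher, against 4.82% and 3.42% of all genes, with a median of -0.27 (-0.29 to -0.20 over all alternatives). None of the 9 had overlapping groups, as in 529 of all 549 called genes. Without SFSN-EC 1 and SFSN-Neu 2 the count was 9 (4.74% of all genes were lower there). The 6 libraries alone gave 2, against 93 of 6371 genes lower in that fit. Set against the 4 remaining SFSN groups, SFSN-EC was lower in 11 of the 17 and higher in 0 (2.61% and 3.35% of all genes). SFSN-Neu was higher in 2 and lower in 0 (6.85% and 5.53%). SFSN-TC, 1 of those groups, was about as low as SFSN-EC over the list. Its median log2 level relative to all 21 libraries was -0.21, -0.20 and -0.23, against -0.28, -0.16 and -0.19 in SFSN-EC.

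Along the pathway most differences were small. Hmgcs1, which makes the precursor of mevalonate, was at 282, 262 and 278 CPM in SFSN-EC, against 377, 381 and 373 CPM in SFSN-Neu, with a log2 fold change of -0.46 ± 0.040 (SE, adjusted p = 4.64e-07). Idi1, the isomerase of the isoprene units, was at 78.3, 75.2 and 78.7 CPM in SFSN-EC, against 93.2, 93.8 and 93.9 CPM in SFSN-Neu, with a log2 fold change of -0.27 ± 0.044 (SE, adjusted p = 0.000453). Dhcr7, the last enzyme of cholesterol synthesis, was at 24.8, 30.7 and 25.3 CPM in SFSN-EC, against 44.3, 34.4 and 40.4 CPM in SFSN-Neu, with a log2 fold change of -0.56 ± 0.11 (SE, adjusted p = 0.00241).

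Fads2, a fatty acid desaturase that SREBP factors also induce, had the largest difference of the list, at 23.8, 28.3 and 26 CPM in SFSN-EC, against 60.1, 45.2 and 55.5 CPM in SFSN-Neu, with a log2 fold change of -1.04 ± 0.10 (SE, adjusted p = 1.14e-06). Fdps, the farnesyl diphosphate synthase, had a log2 fold change of -0.27 ± 0.066 (SE, adjusted p = 0.0143) and lost its call without SFSN-EC 2, SFSN-EC 3 or SFSN-Neu 1 (adjusted p = 0.0696, 0.081 and 0.0541). Insig1, which holds SREBP inactive, had one of -0.27 ± 0.060 (SE, adjusted p = 0.00806), lost without SFSN-Neu 1 (0.0553) and without SFSN-EC 1 and SFSN-Neu 2 together (0.0813).

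**Figure D4:**
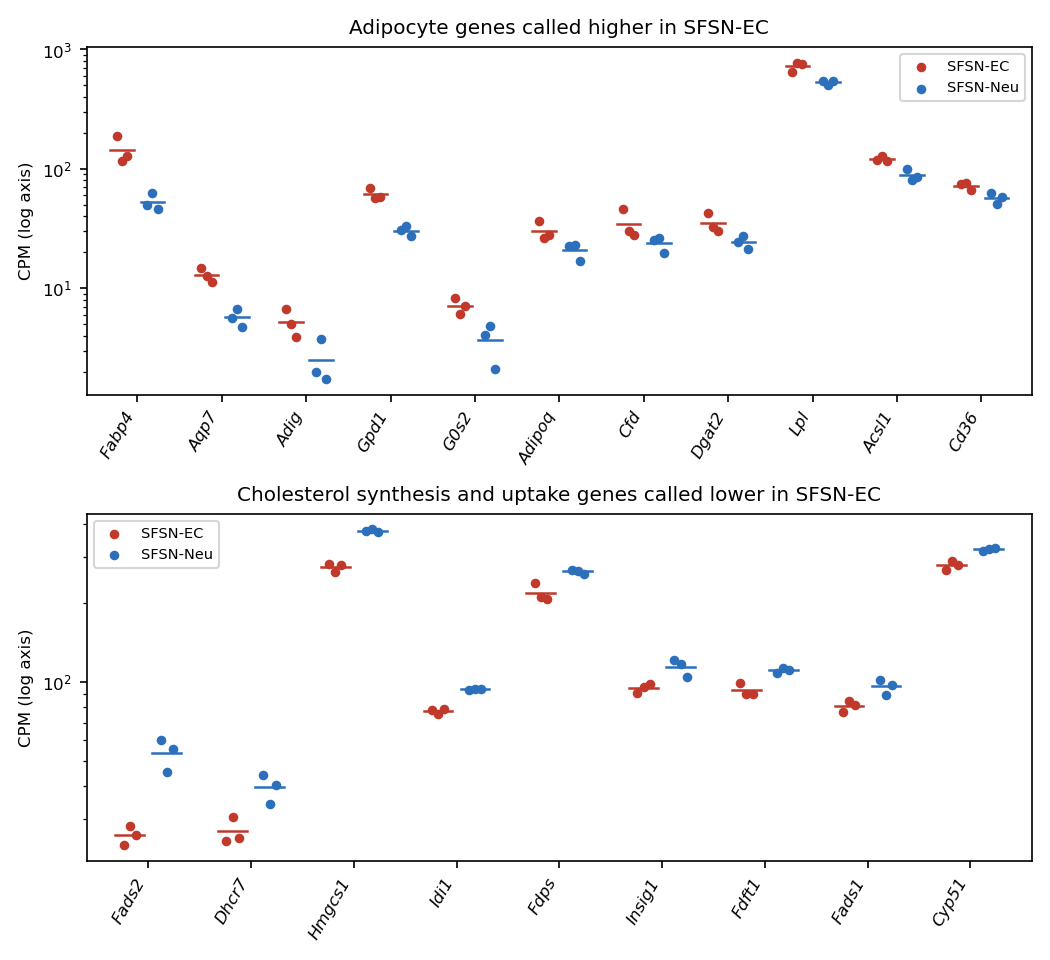
CPM of the 11 adipocyte genes called higher in SFSN-EC (upper panel) and of the 9 cholesterol synthesis and uptake genes called lower (lower panel), on log axes, with a point per library and a bar at each group's mean. Fabp4 has the widest gap of the upper panel (log2 fold change 1.44) and Fads2 of the lower panel (-1.04).

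Targets of ATF4, the factor of amino acid shortage and the integrated stress response, were found in both directions. Of 26 tested, 3 were higher and 6 lower, against 3.42% and 4.82% of all genes. With the 6 libraries alone the counts were 2 and 0, against 29 and 93 of 6371 genes. Chac1, which breaks down glutathione, was at 79.5, 65.9 and 69.6 CPM in SFSN-EC, against 30.3, 30.1 and 27 CPM in SFSN-Neu, with a log2 fold change of 1.3 ± 0.11 (SE, adjusted p = 2.89e-07). Ddit4, an inhibitor of mTOR, was at 65.3, 68.1 and 57.6 CPM in SFSN-EC, against 44.9, 50.3 and 40.7 CPM in SFSN-Neu, with a log2 fold change of 0.49 ± 0.11 (SE, adjusted p = 0.00889), lost without SFSN-Neu 3 (adjusted p = 0.0546). Atf3 was the other gene of the 3. Lower were asparagine synthetase and 5 enzymes that load amino acids onto tRNA, by small amounts. Asns was at 312, 294 and 291 CPM in SFSN-EC, against 347, 380.3 and 345 CPM in SFSN-Neu, with a log2 fold change of -0.26 ± 0.058 (SE, adjusted p = 0.00786), lost without SFSN-Neu 2 (adjusted p = 0.0513). Cars, for cysteine, was at 113, 114 and 115 CPM in SFSN-EC, against 133, 139 and 132 CPM in SFSN-Neu, with a log2 fold change of -0.25 ± 0.035 (SE, adjusted p = 0.000122). Lars, Gars, Iars and Aars had log2 fold changes of -0.24 ± 0.038, -0.23 ± 0.049, -0.26 ± 0.067 and -0.17 ± 0.039 (SE), all without overlap between the groups. Iars lost its call without SFSN-EC 1, SFSN-Neu 1 or SFSN-Neu 3 (0.0553, 0.0792 and 0.117), and Aars without SFSN-EC 2 or SFSN-Neu 2 (0.0551 and 0.0505).

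Of 19 angiogenic factor genes, secreted proteins that act on vessels, 6 were higher and 0 lower, against 3.42% and 4.82% of all genes, with a median of 0.14, and 1 was higher with the 6 libraries alone (29 of 6371 genes in that fit). Besides Angptl4 they were Edn1, the vasoconstrictor endothelin, at 29.5, 28 and 30.9 CPM in SFSN-EC, against 21.7, 19.7 and 19.1 CPM in SFSN-Neu (log2 fold change 0.55 ± 0.074 SE, adjusted p = 8.63e-05), and Hbegf, a ligand of the EGF receptor, at 142, 149 and 142 CPM in SFSN-EC, against 114, 116 and 113 CPM in SFSN-Neu (log2 fold change 0.34 ± 0.058 SE, adjusted p = 0.000843). Figf, the lymphatic growth factor VEGF-D, was at 215, 249 and 244 CPM in SFSN-EC, against 199, 176 and 194 CPM in SFSN-Neu (log2 fold change 0.31 ± 0.064 SE, adjusted p = 0.00353), and Fgf7, a growth factor for epithelia, at 511, 449.7 and 464 CPM in SFSN-EC, against 371, 414 and 378 CPM in SFSN-Neu (log2 fold change 0.29 ± 0.061 SE, adjusted p = 0.00454). The call of Figf was lost with log2 TPM values and limma (adjusted p = 0.194 and 0.198 with a pseudocount of 1 and 0.1). Control lay above both groups for Edn1 (73.6 to 81.2 CPM) and Hbegf (262 to 285 CPM). Cyr61, a matricellular YAP target, was called at a log2 fold change of 0.26 ± 0.073 (SE, adjusted p = 0.0362), which did not hold without SFSN-EC 1, SFSN-Neu 1 or SFSN-Neu 3 (adjusted p = 0.125, 0.104 and 0.158).

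Genes of the TGF-beta, YAP and BMP pathways were higher in 6 of 24 and 6 of 28, with 0 lower in either list, against 3.42% higher and 4.82% lower of all genes, and with medians of 0.12 and 0.08. With the 6 libraries alone the counts were 0 of the TGF-beta and YAP genes and 1 of the BMP genes, against 122 of 6371 genes. Against Control, 13 of the 24 TGF-beta and YAP genes were lower in SFSN-EC and 18 in SFSN-Neu, with 0 higher in either. Of the 28 BMP genes, 10 were higher and 6 lower in SFSN-EC, and 7 higher and 10 lower in SFSN-Neu. Of all genes, 17.7% were higher and 15.5% lower in SFSN-EC than in Control, and 20.1% and 17.9% in SFSN-Neu. Grem1, an antagonist of BMP ligands, was at 3776, 4075 and 4089 CPM in SFSN-EC, against 3552, 3379 and 3596 CPM in SFSN-Neu, with a log2 fold change of 0.18 ± 0.036 (SE, adjusted p = 0.00296). Chrdl1, a chordin-like antagonist, was at 6.997, 18.5 and 16.5 CPM in SFSN-EC, against 7.54, 2.94 and 6.76 CPM in SFSN-Neu, with overlap between SFSN-EC 1 and SFSN-Neu (log2 fold change 1.28 ± 0.33 SE, adjusted p = 0.0219). It lost its call without SFSN-EC 2, SFSN-EC 3 or SFSN-Neu 2 (adjusted p = 0.117, 0.0899 and 0.0955). Among the TGF-beta and YAP targets, Bhlhe40, a transcriptional repressor of the clock and of hypoxia, was at 138, 189 and 173 CPM in SFSN-EC, against 113, 90.7 and 113 CPM in SFSN-Neu, with a log2 fold change of 0.66 ± 0.10 (SE, adjusted p = 0.000338). Ankrd1, a muscle ankyrin protein and YAP target, was at 5.42, 4.48 and 4.25 CPM in SFSN-EC, against 2.32, 2.83 and 2.56 CPM in SFSN-Neu, with a log2 fold change of 0.87 ± 0.22 (SE, adjusted p = 0.0199), lost without SFSN-EC 1, SFSN-Neu 1 or SFSN-Neu 3 (adjusted p = 0.057, 0.0812 and 0.0639).

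Lists of other fates and of the cell cycle were counted against the same 3.42% of all genes higher and 4.82% lower. None of 11 osteoblast genes was called by edgeR, DESeq2 called 1, voom 2 and 2 differed at an unadjusted p under 0.05, with Col1a1, the main chain of type I collagen, at 55043, 62643 and 62136 CPM in SFSN-EC, against 66413, 61003 and 64991 CPM in SFSN-Neu. Of 12 chondrocyte genes 1 was higher, Cilp, a cartilage matrix protein, at 302, 344 and 345 CPM in SFSN-EC, against 239.6, 211 and 235 CPM in SFSN-Neu (log2 fold change 0.53 ± 0.056 SE, adjusted p = 3.93e-06). Of 12 tendon genes 2 were higher, the immediate early genes Egr1 and Egr2 already described, and 2 lower, the small proteoglycans Dcn (-0.20) and Lum (-0.14). Dcn lost its call without SFSN-EC 2, SFSN-EC 3, SFSN-Neu 1 or SFSN-Neu 2 (adjusted p of 0.0806 to 0.211), and Lum without SFSN-Neu 1 (0.0519). Of 42 cell cycle genes 1 was higher and 5 lower, with a median of -0.03. The largest was Lmnb1, the nuclear lamin B1, at 50.9, 59.4 and 59.7 CPM in SFSN-EC, against 86, 80.4 and 87.5 CPM in SFSN-Neu (log2 fold change -0.58 ± 0.074 SE, adjusted p = 4.22e-05). Of 27 Hox genes, 4 erythroid and 3 epithelial genes tested, edgeR called none, DESeq2 called 0, 1 and 0, voom 2, 1 and 0, and 1, 1 and 0 differed at an unadjusted p under 0.05. Over all genes, DESeq2 called 581 of 9998, voom 1194 of 6659, and 1275 of 6659 differed at that unadjusted p. The same counts stand beside those of the osteoblast genes. Summed levels of the erythroid genes were 170 to 192 CPM in SFSN-EC and 195 to 203 CPM in SFSN-Neu, and those of the epithelial genes were 12.1 to 14.9 CPM in SFSN-EC and 11.1 to 13.3 CPM in SFSN-Neu.

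Among the 12 highest genes by rule, the remaining ones were Itgad and Gzmbl3. Itgad, an integrin chain of leukocytes, was higher at 25.6, 21.8 and 24.5 CPM in SFSN-EC, against 13.2, 11.9 and 10.4 CPM in SFSN-Neu, with a log2 fold change of 1.02 ± 0.13 (SE, adjusted p = 5.08e-05), against the direction of the leukocyte list. Gzmbl3, a granzyme-like gene of a family of near-identical copies between which reads can be split, was at 12.53, 7.27 and 10.4 CPM in SFSN-EC, against 5.57, 5.41 and 4.54 CPM in SFSN-Neu (log2 fold change 0.96 ± 0.20 SE, adjusted p = 0.00508). Of the highest and lowest genes by rule, Gzmbl3, Egr3, Cybb and Ly86 lost their calls with the 6 libraries alone (adjusted p = 0.134, 0.0575, 0.1415 and 0.083).

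The 549 called genes were also set against the 12 other SFSN libraries. They were chosen for a difference between SFSN-EC and SFSN-Neu, so these counts are a description. Of the 228 genes higher in SFSN-EC, SFSN-EC was higher than the 4 other groups in 61 and SFSN-Neu lower in 135. Of the 321 genes lower in SFSN-EC, SFSN-EC was lower than those groups in 89 and SFSN-Neu higher in 215. Over all 6659 genes, 397 (5.96%) differed between SFSN-EC and the 4 other groups and 824 (12.4%) between SFSN-Neu and those groups. Against Control the counts were 2210 (33.2%) for SFSN-EC and 2534 (38.1%) for SFSN-Neu. The comparisons share the libraries they are set against, so these counts stand side by side only.

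**Figure D5:**
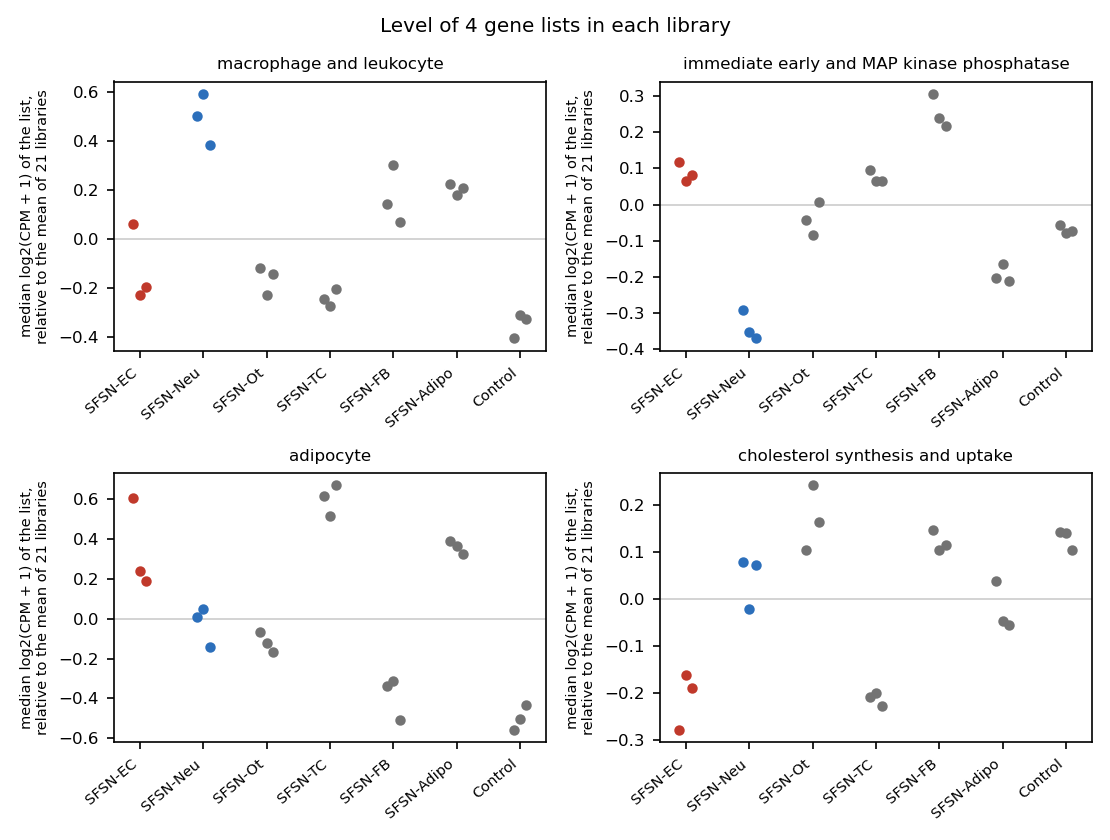
Median over the genes of each of 4 lists of log2(CPM + 1), relative to each gene's mean of all 21 libraries, with a point per library and SFSN-EC in red, SFSN-Neu in blue and the other groups in grey. SFSN-Neu holds the highest values for the macrophage and leukocyte list (0.38 to 0.59) and the lowest for the immediate early list, and SFSN-EC lies with SFSN-TC at the low end of the cholesterol list.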

How the data were processed

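Total RNA was sequenced in 21 libraries, and 3 of SFSN-EC were compared with 3 of SFSN-Neu. The submitters' processing notes name SOAPnuke 2.2.1, HISAT2 2.2.1, Bowtie2 2.4.5 with 200 alignments allowed, RSEM 1.3.1 with a forward probability of 0, DESeq2 1.34.0 and the build Rnor_6.0. Per the file headers, the table the authors deposited has 4 values per gene and library, namely expected counts from RSEM, FPKM, TPM and normalized counts, the last a signal on a scale set by library factors. RSEM divides multi-mapped reads between genes, so near-identical copies are uncertain.

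Expected counts were rounded (84.4% of nonzero values were whole). Symbols turned into dates were restored by gene ID (26). Of 9998 gene IDs 8666 matched the reference, 233 genes had no count and 0 columns of sample values lacked a sample. Counts were filtered with filterByExpr, scaled by TMM and fitted in edgeR 4.0.16 (R 4.3.3) with 1 mean per group over all 21 libraries, which left 14 residual degrees of freedom and gave a biological coefficient of variation of 11.8%. Genes with a Benjamini-Hochberg adjusted p under 0.05 were called, and the SE was taken as the size of the log2 fold change over the root of F. An exact test of a single gene, 3 libraries against 3, cannot go below 0.1. FPKM served for gene lengths, TPM for an alternative test in limma 3.58.1, and the normalized counts for the authors' library factors. The method was tested on simulated data.

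The comparison and the 42 lists (1157 genes, 995 in the table, 870 tested) were chosen with earlier results of these data known. Named genes were the 12 highest and 12 lowest called genes that did not overlap and averaged 10 CPM or more in 1 group, unnamed loci left out, all tested endothelial and neuronal genes, up to 6 called members of each other list (where none was called, the 2 of highest level), and Map2. Another 19 genes (Fos, Jun, Junb, Dusp5, Dusp6, Csf1, Cx3cl1, Lyz2, Cd68, Cd14, Itgb2, Lpl, Cd36, Lars, Gars, Aars, Cd44, Cxcl16 and Birc3) and those named only as untested or by a motif were chosen after their values were seen. Promoters came from RefSeq, GRCr8. No coordinates were converted between builds. The 19 alternatives covered scaling, the filter, DESeq2 1.42.0, the libraries fitted, single libraries left out, quality weights, TPM and gene length. The authors' library factors were added after the data were seen. Some items are not reported here.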

Additional observations from a re-analysis of the deposited data

How the results depend on the processing

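The count of 549 genes lay within 1.5 times under 17 of the 19 alternatives and moved to 122 with only the 6 libraries of the pair and to 1194 with voom and quality weights. The count of genes differing at least 1.5-fold, 209, moved to 107 with only the 6 libraries. With 1 library left out the counts were 397 to 808 and 177 to 243. The labels do not say whether replicate numbers pair the samples. Deviations of same-numbered libraries from their group's mean correlated at -0.341, -0.39 and 0.215, those of SFSN-EC 1 and SFSN-Neu 2 at 0.545. With 3 libraries a group, of which 1 stood apart, these correlations cannot decide whether the numbers pair the samples. A replicate block gave 502 genes. Of the values of called named genes under the alternatives, 2340 kept direction and call, 472 kept the direction and lost the call, and 0 reversed. The reversals were all of genes that were not called. With total-count scaling Egfl7 was at -0.0035. Without SFSN-EC 1 and SFSN-Neu 2 Egfl7 was at -0.1256 and Celf4 at -0.0549, and with quality weights they were at -0.104 and -0.0585. With the gene-length trend removed Ets1 was at -0.0108 and Col1a2 at -0.0247. Col1a2 was at -0.0004 with the replicate block and at -0.0187 and -0.0188 with log2 TPM and a pseudocount of 1 and 0.1. With 1 library, or SFSN-EC 1 and SFSN-Neu 2, left out, the log2 fold changes of the genes that reversed ranged as follows: Flt1 -0.1054 to 0.2699, Egfl7 -0.1828 to 0.1076, Ets1 -0.0258 to 0.1027, Lyve1 -0.7821 to 0.1856, Cd93 -0.1305 to 0.4005, Cplx2 -0.0204 to 0.3947, Celf4 -0.1593 to 0.1522, Fez1 -0.1004 to 0.118, Col1a2 -0.2482 to 0.3705 and Krt8 -0.3406 to 0.0705. The causes were not tested. The untested members of the endothelial and neuronal lists had 0 to 7 counts per library. Whether depth or absent expression lay behind these counts was not tested. Genes later in the alphabet than Map2k1 were not analysed here.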

Other observations

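Single genes of 5 further lists are given here, chosen from their called members and each without overlap between the groups. The lists held 2 genes higher and 0 lower of 15 (Notch pathway), 2 and 1 of 18 (IGF system), 2 and 3 of 22 (heat shock), 2 and 0 of 19 (Wnt pathway) and 3 and 0 of 17 (smooth muscle), against 3.42% and 4.82% of all genes. Hes1, a repressor that Notch signalling induces, was at 149, 127 and 130.1 CPM in SFSN-EC, against 93.3, 94.2 and 87.1 CPM in SFSN-Neu, with a log2 fold change of 0.56 ± 0.078 (SE, adjusted p = 9.76e-05). Igf2, the fetal insulin-like growth factor, was lower at 10.4, 12.2 and 12.3 CPM in SFSN-EC, against 17.3, 16.2 and 18.6 CPM in SFSN-Neu, with a log2 fold change of -0.58 ± 0.11 (SE, adjusted p = 0.00246), and Ghr, the growth hormone receptor, was higher at 62.5, 74.5 and 70.3 CPM in SFSN-EC, against 53.4, 52.7 and 49.7 CPM in SFSN-Neu (log2 fold change 0.41 ± 0.069 SE, adjusted p = 0.000651). The call of Ghr was lost with log2 TPM values (adjusted p = 0.0528 and 0.0519 with a pseudocount of 1 and 0.1). Hspa4l, a chaperone of the Hsp110 family, was lower at 4.97, 4.81 and 4.25 CPM in SFSN-EC, against 10.6, 8.83 and 7.8 CPM in SFSN-Neu, with a log2 fold change of -0.95 ± 0.15 (SE, adjusted p = 0.000368), and the mitochondrial chaperonin Hspd1 was lower at 688, 610.5 and 611 CPM in SFSN-EC, against 749, 829.9 and 782 CPM in SFSN-Neu (log2 fold change -0.31 ± 0.054 SE, adjusted p = 0.00114). Ccnd1, the G1 cyclin, was higher at 442, 434 and 447 CPM in SFSN-EC, against 371, 362 and 358 CPM in SFSN-Neu (log2 fold change 0.28 ± 0.037 SE, adjusted p = 7.99e-05). Lmod1, an actin nucleator of smooth muscle, was higher at 381, 348 and 348 CPM in SFSN-EC, against 282, 298 and 287 CPM in SFSN-Neu (log2 fold change 0.31 ± 0.046 SE, adjusted p = 0.000159).

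Of 25 collagen genes 4 were higher and 1 lower, against 3.42% and 4.82% of all genes, with a median of 0.03. Col6a1 was at 4957, 4625 and 4770.4 CPM in SFSN-EC, against 4098, 4452 and 4166 CPM in SFSN-Neu (log2 fold change 0.17 ± 0.043 SE, adjusted p = 0.0139), and Col6a2 at 4111, 4233 and 4325 CPM in SFSN-EC, against 3667, 3497 and 3776 CPM in SFSN-Neu (log2 fold change 0.21 ± 0.036 SE, adjusted p = 0.000785). Col4a2 and Col18a1 had log2 fold changes of 0.24 ± 0.056 and 0.16 ± 0.034 (SE), and Col8a2, the lower one, had -0.19 ± 0.041. Col6a1 lost its call without SFSN-Neu 1 or SFSN-Neu 3 (adjusted p = 0.0721 and 0.0619), and Col4a2 without SFSN-EC 2, SFSN-EC 3 or SFSN-Neu 2 (0.0505, 0.0702 and 0.0575). With log2 TPM values, Col4a2, Col6a2, Col8a2 and Col18a1 lost theirs (0.136 to 0.274). With the gene-length trend removed, Col6a1 and Col18a1 were at adjusted p = 0.305 and 0.369. In the edgeR fit of the 6 libraries alone 0 of the 25 collagen genes were called, against 6 by DESeq2 and 10 by voom in the fits of more libraries. Over all genes these called 122 of 6371, 581 of 9998 and 1194 of 6659.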
